A study of Mus musculus with 6 samples.

Results

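The AIM2-like PYHIN receptors are a family of interferon-inducible genes that lie side by side on mouse chromosome 1. Their members here were the rows of the deposited gene table named Aim2, Ifi202b, Ifi203, Ifi204, Ifi205, Ifi207, Ifi209, Ifi211, Ifi213 and Mndal, which makes 10 of 33965 genes, and all 10 passed the filter on low counts. Bulk RNA-seq had been carried out on 6 tumors of MC38, a mouse colon carcinoma cell line, that had grown subcutaneously in C57BL/6 mice. In the PBS group (n = 3) the mice received vehicle, and in the GB2 group (n = 3) they received GB2 into a vein, a prodrug in which MSA-2, an agonist of STING, is linked by a disulfide bond to artesunate, described as an inhibitor of TREM2. The methods describe female mice that were 6 weeks old when bought. The tumors carry no engineered allele in the labels, and no pooling of animals is stated. The comparison asked whether RNA of these DNA receptors was more abundant in tumors exposed to a STING agonist prodrug.

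A PYHIN protein usually carries a pyrin domain, which binds other pyrin domains, at one end and a HIN domain, which binds double-stranded DNA without regard to sequence, at the other. AIM2 is the member that, on meeting DNA in the cytosol, assembles the adaptor ASC and caspase-1 into an inflammasome, which matures IL-1β and IL-18 and opens gasdermin D pores. Other members act in the nucleus or next to STING, and macrophages and other myeloid cells are the cells in which the family is best known. The interferon-stimulated response element (ISRE) is the DNA motif through which type I interferon acts on promoters.

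The genes lie close together. On the positions of the deposited table they span chr1:173178445-173859376, a stretch of 681 kb that holds 15 genes, of which 10 are members and 5 are not. Aim2 and Ifi209 are on the plus strand and the other 8 members on the minus strand. Those positions are not those of GRCm38: none of the 10 members starts where RefSeq places it on GRCm38.p6, and the shift is between 171 and 181 kb. Aim2 had the smallest shift and Mndal the largest. The submitters' processing notes name mm10, which is GRCm38, so the positions do not match the build named there. Which build they follow is not stated. Below, positions given with gene identifiers are those of the deposited table, whereas promoter sequences are placed on GRCm38.p6. Positions of the 2 kinds cannot be compared directly. The deposited GO annotation gives all 10 members the terms activation of innate immune response, which 0.209% of 21054 annotated genes carry, and cellular response to interferon-beta, which 0.266% carry. It gives 9 of them, all except Ifi203, double-stranded DNA binding.

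Promoter windows of RefSeq on GRCm38.p6, from 250 bases before to 50 bases after a transcript start, were found for 9 of the 10 members, Ifi204 being the one without. The letters of the ISRE, taken as GAAA, any 2 bases and GAAA again, and searched on both strands, were in 6 of these 9 genes, namely Ifi203, Ifi205, Ifi207, Ifi211, Ifi213 and Mndal. They were in 7 of the 11 member windows (63.6%), against 3.44% of all 32851 windows of the same length and 20 of 34 windows (58.8%) of a list of interferon-stimulated genes. They were also in 3 of 3 windows (100%) of Ifi206, Ifi208 and Ifi214, non-members of the same stretch, so they are not particular to the members. In Aim2, Ifi209 and Ifi202b these letters are not in this window. The only Aim2 window, chr1:173420354-173420653 on the plus strand, lies downstream of the first base RefSeq gives for the gene, 173349547. A transcript start at that first base was not searched. The palindromic letters TTCNNNGAA of the interferon-gamma activated site (GAS), which do not overlap the ISRE letters in any member, were in 1 member window, that of Ifi202b, against 8.30% of all windows. The matches are given with 10 bases on each side, because 6 members share the 10-base core with at most 1 change of letter, 3 whose values did not overlap between the groups (Ifi205, Ifi207 and Ifi211) and 3 whose values did (Ifi203, Ifi213 and Mndal), while the flanking bases differ more. Capitals mark the ISRE letters, and each is written 5′ to 3′ on the strand of its gene.
Ifi207, chr1:173741831-173741860, minus strand: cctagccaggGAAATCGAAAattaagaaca
Ifi213, chr1:173599326-173599355, minus strand: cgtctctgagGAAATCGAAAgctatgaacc
Ifi211, chr1:173913064-173913093, minus strand: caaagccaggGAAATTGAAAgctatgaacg
Ifi205, chr1:174031870-174031899, minus strand: ccaggccaggGAAATTGAAAgctatgaaca
Mndal, chr1:173880204-173880233, minus strand: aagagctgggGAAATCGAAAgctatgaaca
Ifi203, chr1:173942508-173942537, minus strand: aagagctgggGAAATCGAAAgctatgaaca
The core is GAAATCGAAA in 4 members and GAAATTGAAA in 2, and the 30 bases of Mndal and Ifi203 are identical. Those of Ifi213 are identical to the 30 bases around the match in the non-member Ifi208. In Ifi207, Mndal, Ifi211 and Ifi203 the match begins between 41 and 35 bases before the transcript start, in Ifi213 73 bases and in Ifi205 134 bases before it. The second window of Mndal and the window of Ifi205 hold a further match in the opposite orientation.

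**Figure D1:**
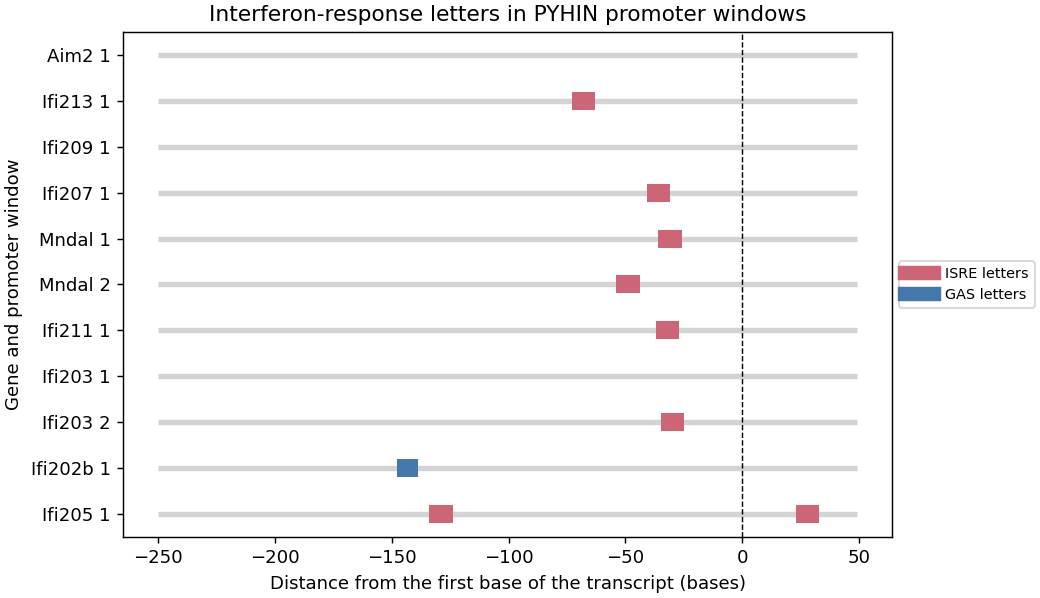
Each grey line is the promoter window of a PYHIN gene, labelled with the gene and the number of the window (RefSeq, GRCm38.p6), plotted by the distance in bases from the first base of the transcript (dashed line); red blocks are ISRE letters and the blue block GAS letters. ISRE letters are in 7 of the 11 windows, and Mndal and Ifi203 have 2 windows each.

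The full windows of 2 members are given because they stood at opposite ends of the comparison between tumors while both hold the ISRE letters (capitals). Ifi207 had one of the largest differences and Mndal the smallest. Both are from RefSeq on GRCm38.p6, minus strand.
Ifi207, chr1:173741760-173742059: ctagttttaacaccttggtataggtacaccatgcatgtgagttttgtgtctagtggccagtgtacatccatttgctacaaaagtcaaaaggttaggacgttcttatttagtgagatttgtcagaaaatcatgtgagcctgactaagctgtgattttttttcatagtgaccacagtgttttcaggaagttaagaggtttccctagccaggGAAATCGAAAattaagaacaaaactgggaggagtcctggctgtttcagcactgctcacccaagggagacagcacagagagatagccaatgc
Mndal, chr1:173880138-173880437: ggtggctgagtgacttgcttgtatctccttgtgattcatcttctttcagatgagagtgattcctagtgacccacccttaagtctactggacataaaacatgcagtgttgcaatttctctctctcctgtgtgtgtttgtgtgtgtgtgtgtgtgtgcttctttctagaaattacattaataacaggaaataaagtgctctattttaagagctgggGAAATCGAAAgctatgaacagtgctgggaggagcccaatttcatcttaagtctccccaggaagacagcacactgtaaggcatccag

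The libraries held between 64764405 and 83690056 estimated counts, where, judging from the low values, about 4 counts may stand for 1 read pair, and each GB2 library was the larger. All 10 members together took only 515 to 2051 counts in PBS tumors and 2276 to 4285 in GB2 tumors, so their values rest on few reads. Carcinoma epithelium markers (Krt8, Krt18, Epcam, Cdh1, Cldn4, Cldn7) summed to between 2.60 and 7.85 counts per 10⁶ (CPM) and were thus low in these tumors, while proliferation markers summed to between 1678 and 2620 CPM. Hemoglobin and other erythroid genes ran from 507 to 7470 CPM in PBS and from 94.6 to 1271 CPM in GB2 tumors. In bulk tissue, fewer cells of a type and less RNA per cell cannot be told apart.

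In 8 members the fitted fold change was above 2 in favour of GB2 tumors, against 7.35% of all genes tested (3.75% in favour of PBS tumors), but none passed the adjusted test. The 8 include Ifi205, Ifi209 and Ifi211, which did not pass at the unadjusted p in edgeR either. Without GB2 tumor 3, Ifi205, Ifi209 and Ifi211 fell under 2-fold, at log2 fold changes of 0.80, 0.64 and 0.84. Without PBS tumor 3 they did so too, at 0.85, 0.90 and 0.78. The fitted values of Mndal and Ifi203 were under 2-fold. The log2 fold changes of the 10 members ran from -0.01 to 2.22 with a median of 1.28, while the median over all 19602 genes tested was -0.02. None of the 10 had an adjusted p under 0.05 in edgeR's quasi-likelihood test, nor did any other gene that differed 2-fold or more (0% of those tested), and the members' adjusted p values ran from 0.432 to 0.997. With the unadjusted p limit of 0.05 in place of the adjusted one, and the 2-fold limit kept, 5 of the 10 members were higher in GB2 tumors (Aim2, Ifi202b, Ifi204, Ifi207 and Ifi213) and 0 were lower, against 3.74% of all genes higher and 0.918% lower. Without the fold limit the members were the same 5, against 6.94% of all genes in either direction. In 6 members (Aim2, Ifi202b, Ifi204, Ifi205, Ifi207 and Ifi211) the lowest GB2 tumor was above the highest PBS tumor, against 8.61% of all genes, and in 0 members below, against 6.68%. DESeq2 at an adjusted p under 0.05 and the same fold change called 2 of the 10, Ifi204 (adjusted p = 0.0428) and Ifi207 (0.0340), against 1.80% of genes called higher and 0.169% called lower. At the unadjusted p and fold limits DESeq2 passed 7 members, with Ifi205 and Ifi211 besides those 5, where 4.07% of all genes were higher. In edgeR without PBS tumor 1, Ifi205 and Ifi211 passed and Ifi213 did not, where 4.63% of all genes were higher. Leaving out PBS tumor 3 reduced the 5 members to 3 (Ifi202b, Ifi204 and Ifi207), where 4.02% of all genes were higher, and leaving out GB2 tumor 3 left the same 3, where 2.49% were. Over the alternatives in which each was tested, Aim2 passed these limits in 7 of 13 and Ifi213 in 5 of 12, while Ifi202b, Ifi204 and Ifi207 passed in 12 of 13.

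**Figure D2:**
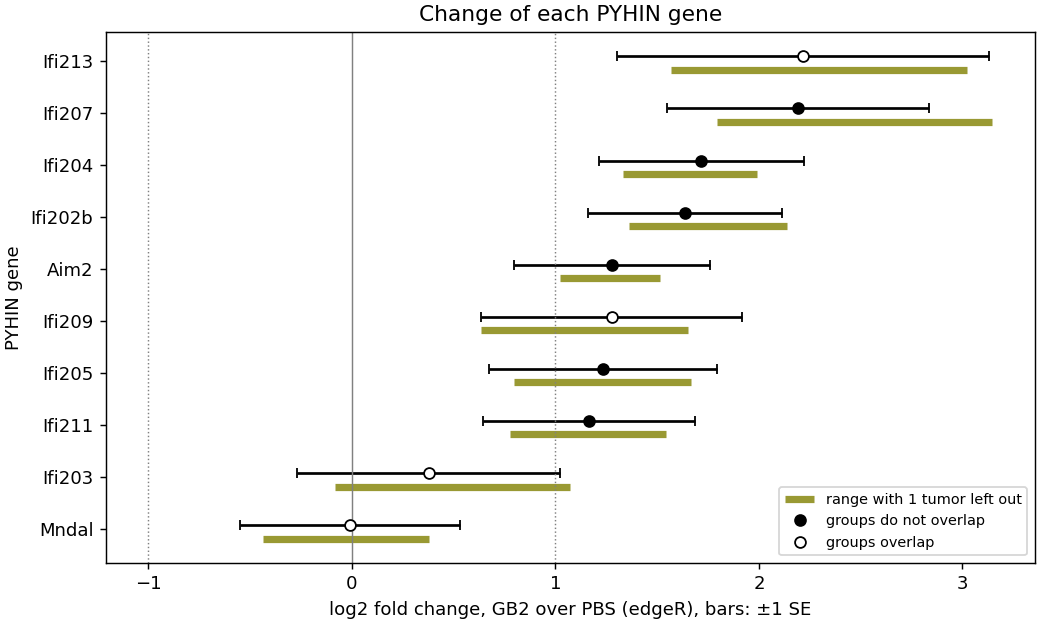
Points are the log2 fold change of each PYHIN gene, GB2 over PBS, from edgeR with ±1 SE (n = 3 tumors a group), filled where the 2 groups of tumors do not overlap; the thick bars span the values obtained with 1 tumor left out, and dotted lines mark a 2-fold difference. Mndal sits at -0.01 and Ifi203 at 0.38, and the other 8 genes lie between 1.16 and 2.22.

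Among the members tied to the inflammasome, Aim2 (ENSMUSG00000037860, chr1:173178445-173293606), the DNA receptor itself, was at 0.389, 0.454 and 0.212 CPM in PBS tumors 1, 2 and 3 and at 0.655, 0.853 and 1.06 CPM in GB2 tumors 1, 2 and 3. All GB2 values were above all PBS values, but the highest rested on 90 estimated counts and the lowest on 15. The means were 0.352 ± 0.125 and 0.855 ± 0.202 CPM (SD, n = 3 each), and on the log2 scale the difference was 1.28 (SE 0.48, adjusted p = 0.653 by edgeR's quasi-likelihood test).
Ifi202b (ENSMUSG00000026535, chr1:173790134-173810310) encodes p202, which has a pair of HIN domains and no pyrin domain and is known to hold AIM2 back from ASC. It is known for a low level in C57BL/6 mice. Its values were 0.270, 0.426 and 0.778 CPM in PBS tumors and 1.80, 1.54 and 1.27 CPM in GB2 tumors. The groups did not overlap, and unlike in most members PBS tumor 3 was the highest of its group and GB2 tumor 3 the lowest. The difference of 1.64 on the log2 scale (SE 0.48) had the smallest p of the family (adjusted p = 0.432, edgeR), ranking 438 among 19602 genes.
Ifi205 (ENSMUSG00000054203, chr1:173839564-173859376), whose product is known to promote expression of the ASC gene in macrophages, was at 1.83, 1.33 and 0.467 CPM in PBS tumors and at 2.14, 2.04 and 4.34 CPM in GB2 tumors. The groups did not overlap, yet PBS tumor 1 lay just under GB2 tumor 2, and edgeR gave a log2 fold change of 1.23 (SE 0.56) with an adjusted p of 0.747.

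Ifi204 and Ifi207 are members linked to interferon induction through STING. Ifi204 (ENSMUSG00000073489, chr1:173574859-173594509) encodes p204, often treated as the mouse counterpart of human IFI16. It was at 2.47, 2.58 and 0.735 CPM in PBS tumors and at 5.24, 5.19 and 8.58 CPM in GB2 tumors. All GB2 tumors lay well above all PBS tumors. Means were 1.93 ± 1.03 and 6.34 ± 1.95 CPM (SD, n = 3 each), with a log2 fold change of 1.72 (SE 0.50, adjusted p = 0.446 by edgeR), between 1.33 and 1.99 with any tumor left out.
Ifi207 (ENSMUSG00000073490, chr1:173550993-173569313) encodes a PYHIN protein reported to bind STING. Its PBS values were 0.287, 1.69 and 0.594 CPM and its GB2 values 2.81, 3.64 and 5.33 CPM. No tumor of one group reached the other, and the PBS tumors spread 5.88-fold among themselves against 1.9-fold in GB2 tumors. The log2 fold change was 2.19 (SE 0.64, adjusted p = 0.446 by edgeR) and ran from 1.79 without PBS tumor 1 to 3.15 without PBS tumor 2.

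Ifi211, Ifi209 and Ifi213 are less studied members. Ifi211 (ENSMUSG00000026536, chr1:173723911-173740612) was at 3.08, 2.5 and 0.792 CPM in PBS tumors and at 3.61, 3.99 and 6.67 CPM in GB2 tumors. The groups did not overlap, although PBS tumor 1 and GB2 tumor 1 were close, and the log2 fold change was 1.16 (SE 0.52, adjusted p = 0.743 by edgeR).
Ifi209 (ENSMUSG00000043263, chr1:173458483-173475494) overlapped, with 0.794, 0.993 and 0.269 CPM in PBS tumors against 1.32, 0.805 and 2.86 CPM in GB2 tumors. The log2 fold change of 1.28 (SE 0.64, adjusted p = 0.757 by edgeR) was 0.64 without GB2 tumor 3 and 0.90 without PBS tumor 3.
Ifi213 (ENSMUSG00000073491, chr1:173393849-173426840) had the lowest mean FPKM of the family in both groups, although in GB2 tumors the mean CPM of Aim2 was lower (0.855 against 1.19). It had 14, 33 and 4 estimated counts in PBS tumors and 23, 103 and 174 in GB2 tumors. If 4 counts stand for 1 read pair, the lowest tumor had about 1. GB2 tumor 1, at 0.274 CPM, lay below PBS tumor 2, at 0.468 CPM, so the groups overlapped. The log2 fold change was 2.22 (SE 0.91, adjusted p = 0.702 by edgeR), and it ran from 1.57 without GB2 tumor 3 to 3.02 without PBS tumor 2.

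Mndal and Ifi203 had the smallest fitted differences of the family, and their difference from the other members was not tested. Mndal (ENSMUSG00000090272, chr1:173676692-173707753) is named for its likeness to the myeloid nuclear differentiation antigen. It was at 8.77, 7.36 and 1.84 CPM in PBS tumors and at 4.27, 6.24 and 7.34 CPM in GB2 tumors, so that PBS tumors held both the highest values and the lowest. Means of 5.99 ± 3.66 and 5.95 ± 1.55 CPM (SD, n = 3 each) gave a log2 fold change of -0.01 with a 95% interval from -1.27 to 1.25 (edgeR), which leaves room for a 2-fold difference either way.
Ifi203 (ENSMUSG00000039997, chr1:173747973-173770238), an interferon-inducible nuclear member, was at 6.44, 11.3 and 1.54 CPM in PBS tumors and at 4.98, 9.16 and 10.9 CPM in GB2 tumors. Again PBS tumors held both extremes. Its log2 fold change of 0.38 (95% interval -1.13 to 1.88, adjusted p = 0.896 by edgeR) ran from -0.08 without PBS tumor 3 to 1.07 without PBS tumor 2, and its interval holds the family median of 1.28.

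**Figure D3:**
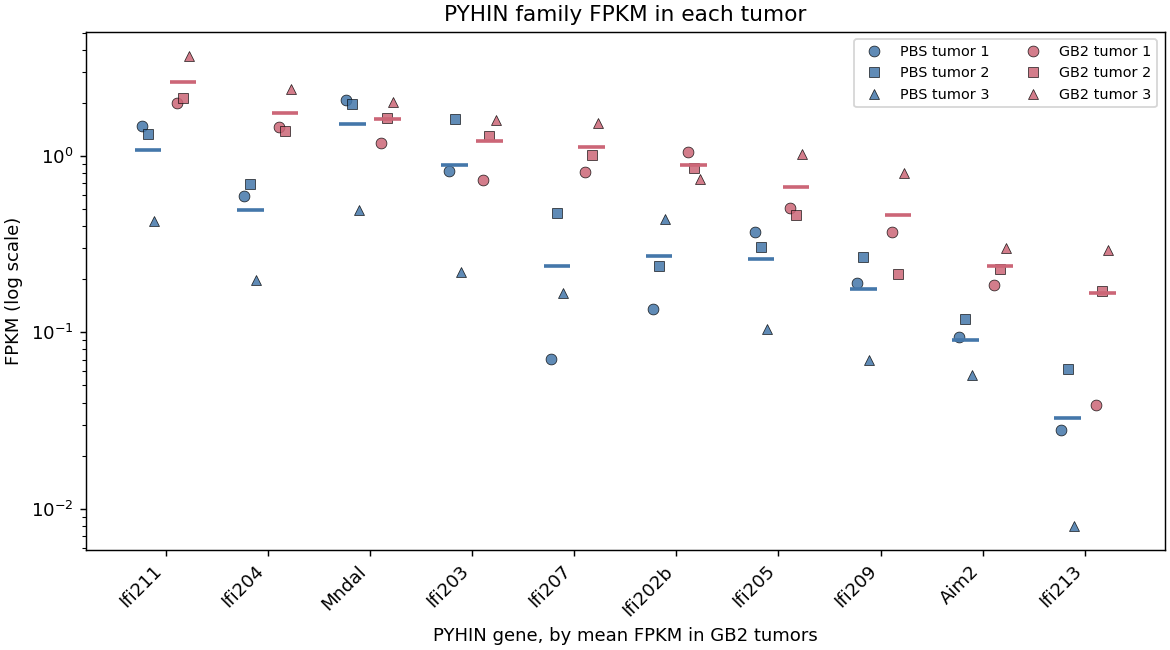
Points are the FPKM of each PYHIN gene in each tumor on a log scale, PBS in blue and GB2 in red with a symbol shape for each tumor number, and lines are group means (n = 3 tumors). In 6 genes all red points lie above all blue points; in Mndal and Ifi203 the red and blue points intermingle and PBS tumor 3 is the lowest.

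Levels of different members were compared on the length-corrected FPKM scale. In PBS tumors the order of mean FPKM was Mndal (1.51), Ifi211 (1.08), Ifi203 (0.886), Ifi204 (0.494), Ifi202b (0.270), Ifi205 (0.261), Ifi207 (0.237), Ifi209 (0.176), Aim2 (0.0900) and Ifi213 (0.0327). In GB2 tumors it was Ifi211 (2.61), Ifi204 (1.75), Mndal (1.62), Ifi203 (1.21), Ifi207 (1.12), Ifi202b (0.884), Ifi205 (0.667), Ifi209 (0.461), Aim2 (0.238) and Ifi213 (0.168). In neither group did any pair of neighbours in the order have separate ranges over the 3 tumors. Even the most abundant member was modest, since Ifi211 stood at percentile 49.3 of the tested genes in GB2 tumors and Aim2 at percentile 18.3.

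Summed over the 10 members, FPKM was 5.86, 7.09 and 2.19 in PBS tumors and 8.35, 9.43 and 14.4 in GB2 tumors, with means of 5.04 ± 2.55 and 10.7 ± 3.24 (SD, n = 3 each). In the makeup of that sum, the shares of 7 members overlapped between the groups and those of 3 did not. Mndal made up 35.5%, 27.8% and 22.5% of it in PBS tumors and 14.1%, 17.5% and 14% in GB2 tumors. Ifi204 made up 10.1%, 9.79% and 9.04% in PBS tumors and 17.5%, 14.7% and 16.6% in GB2 tumors, and Ifi207 1.21%, 6.68% and 7.68% against 9.76%, 10.8% and 10.7%. A share can move because other members move, and no test was made on shares.

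**Figure D4:**
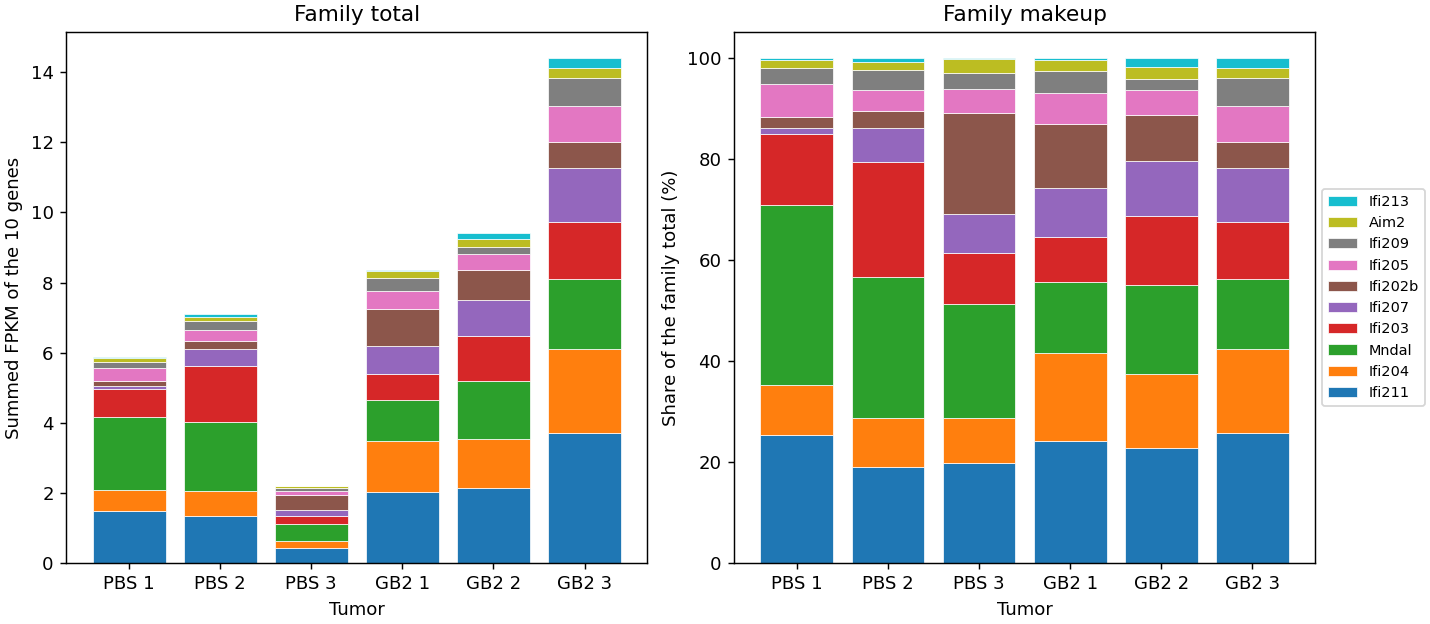
Left, summed FPKM of the 10 PYHIN genes in each tumor, split by gene; right, each gene's share of that sum in percent. The sum is lowest in PBS tumor 3 (2.19) and highest in GB2 tumor 3 (14.4), and the Mndal share (green) is smaller and the Ifi204 share (orange) larger in every GB2 tumor than in any PBS tumor.

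Ratios within a tumor are not moved by a factor that scales all members of that tumor alike. The ratio of Ifi204 to Mndal in FPKM was 0.283, 0.352 and 0.401 in PBS tumors and 1.24, 0.841 and 1.18 in GB2 tumors. Ifi204 was therefore the less abundant gene in every PBS tumor and the more abundant one in GB2 tumors 1 and 3. The ratio of Ifi207 to Mndal was 0.0341, 0.240 and 0.341 against 0.691, 0.614 and 0.764. Of the 9 other members, 6 (Aim2, Ifi204, Ifi205, Ifi207, Ifi211 and Ifi213) had a ratio to Mndal that was higher in every GB2 tumor than in any PBS tumor, and 0 a lower one, where 2.20% of all tested genes were higher and 1.68% lower relative to Mndal. Relative to Ifi203, 3 of 9 (Ifi204, Ifi207 and Ifi213) were higher without overlap, against 0.633% of all genes, and 0 were lower, against 1.97%. These 2 reference members were picked after the values were seen, and a single ratio compared between 3 and 3 tumors cannot reach a p under 0.1 in an exact permutation test.

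The members are close copies of one another in part, so reads could have been assigned to the wrong one. Every stretch of 150 bases of the longest coding transcript of each member in GENCODE M21 was looked up in the transcripts of all other genes. Of these stretches, 46.4% of Ifi211, 36.1% of Ifi205, 10.8% of Ifi204 and 10% of Ifi209 were found letter for letter in another gene. For Ifi211 these were Ifi205, Ifi204 and Mndal, for Ifi205 Ifi211 and Mndal, for Ifi204 Ifi211, and for Ifi209 Ifi214. In Aim2, Ifi202b and Ifi207 none was shared, and in Ifi213, Ifi203 and Mndal 0.0385%, 0.86% and 1.76% were. The values of Ifi211 and Ifi205, and to a lesser extent those of the other members with shared stretches and the ratios made from them, are therefore uncertain as those of single genes, whereas Ifi202b and Ifi207 held no stretch of this length found in another gene. With stretches of 50 bases the shares were 72.9% for Ifi211, 49.6% for Ifi205, 35.1% for Ifi209, 30.2% for Ifi204, 27.9% for Ifi213, 27.2% for Mndal, 10.7% for Ifi203, 7.17% for Ifi207, 0.789% for Aim2 and 0% for Ifi202b.

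The 5 non-members between Aim2 and Ifi205 were also read. Ifi203-ps, an unprocessed pseudogene, was at 0.338, 0.326 and 0.453 CPM in PBS tumors and at 0.893, 0.997 and 1.26 CPM in GB2 tumors, without overlap (log2 fold change 1.49, SE 0.40, adjusted p = 0.365 by edgeR). Ifi206 and Ifi208 had log2 fold changes of 2.38 and 0.97 with overlapping groups, and Ifi214 and the predicted gene Gm18445 were too low to be tested. Of the 3 tested, 1 passed the unadjusted p and fold limits, against 3.74% of all genes, and 3 were above 0, against 48.3%.

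The extremes fell on the same tumors in most members. PBS tumor 3 was the lowest of the 6 tumors in 8 members, where 18.4% of all tested genes have it lowest, and GB2 tumor 3 the highest in 7, where 14.3% do. The exceptions for the lowest tumor were Ifi202b and Ifi207, both lowest in PBS tumor 1. The mean log2 CPM of the members, each centred on its own mean, was -0.46, -0.04 and -1.61 in PBS tumors and 0.27, 0.61 and 1.22 in GB2 tumors. Root mean square differences from this profile were smallest for Aim2 (0.208), Ifi211 (0.262) and Ifi204 (0.298) and largest for Ifi202b (0.936) and Ifi207 (0.859). Among 14235 non-member genes with a mean of at least 1 CPM, the closest to the profile over the 6 tumors were Gmfg (0.0890), Il10ra (0.127), Lcp2 (0.136), Gvin2 (0.142) and Dapk1 (0.165).

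**Figure D5:**
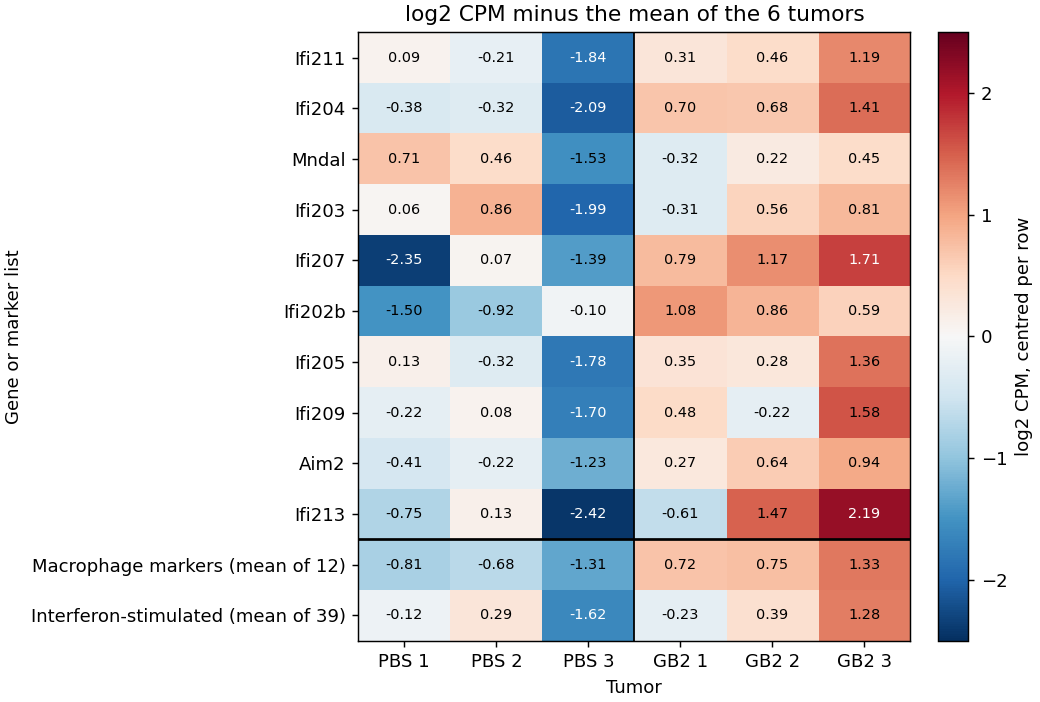
Each cell is the log2 CPM of a PYHIN gene in a tumor minus the gene's mean over the 6 tumors, with the mean of 12 macrophage markers and of 39 interferon-stimulated genes below the line treated alike; red is above and blue below the mean. PBS tumor 3 is blue in all rows, at -1.31 in the macrophage row and -1.62 in the interferon row, and GB2 tumor 3 is red in all of them.

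Partners of AIM2 were read next. Pycard, the gene of ASC, was at 27.0, 14.02 and 7.06 CPM in PBS tumors and at 10.3, 9.93 and 11.9 CPM in GB2 tumors (log2 fold change -0.58, adjusted p = 0.794 by edgeR), with PBS tumors at both extremes. Casp1 was at 1.47 ± 1.03 and 1.56 ± 0.214 CPM (0.08), and the pore gene Gsdmd at 8.08 ± 0.867 and 10.04 ± 2.09 CPM (0.31; SD, n = 3 each). Of the substrates, the cytokine gene Il1b was higher, at 1.31 ± 0.503 against 5.26 ± 0.751 CPM (log2 fold change 2.00, adjusted p = 0.207 by edgeR), whereas Il18 was lower in all 3 GB2 tumors, at 5.44 ± 0.777 against 3.79 ± 0.612 CPM (log2 fold change -0.52, adjusted p = 0.757). Of the 17 inflammasome and pyroptosis genes tested, 4 were higher at the unadjusted p and fold limits, against 3.74% of all genes. None was lower, against 0.918%. The 4 were Il1b, Il1a (1.81), Mefv (1.62), the gene of the pyrin sensor, and the IL-1 receptor antagonist Il1rn (1.48). In 6 of the 17 all GB2 tumors lay above all PBS tumors, against 8.61% of all genes, and in 1 (Il18) below, against 6.68%. The median log2 fold change of the 17 was 0.41, that of all genes -0.02.
In the parallel pathway of cytosolic DNA sensing, 0 of 16 tested genes passed those limits in either direction and the median was 0.08. Cgas, the enzyme that makes the STING ligand, was at 12.2 ± 2.02 and 16.6 ± 1.38 CPM (log2 fold change 0.44), and Sting1 at 43.9 ± 9.07 and 49.1 ± 12.3 CPM (0.16). In 2 of the 16 genes, Cgas and Nlrc3, all GB2 tumors lay above all PBS tumors, against 8.61% of all genes. In 0 they lay below, against 6.68%.

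Genes that act up- or downstream of interferon were read as 2 lists. Of 15 tested interferon, receptor and transducer genes, 4 were higher at the unadjusted p and fold limits, against 3.74% of all genes. All 4 were transcription factors of the IRF family, Irf7 (log2 fold change 1.64), Irf5 (1.56), Irf9 (1.15) and Irf8 (1.14). Irf1 (0.21) and Irf2 (0.25) of the same list did not pass, nor did Irf3 (-0.22), which was read with the DNA sensing genes. The receptor genes Ifnar1 (0.35) and Ifngr1 (0.26) did not pass, and Ifnb1 and Ifng were too low to be tested.
Of 39 interferon-stimulated genes, 9 were higher and 0 lower at those limits, against 3.74% and 0.918% of all genes. Among the 9 were Oas3 (1.79), Usp18 (1.62), Oasl1 (1.47) and Rtp4 (1.29), and the median of the 39 was 0.92. Isg15 was at 10.6 ± 6.38 and 10.9 ± 5.49 CPM (log2 fold change 0.04). The count of 9 rested on single tumors, as it dropped to 1 when either PBS tumor 3 or GB2 tumor 3 was left out, to 4 when PBS tumor 1 was and to 5 when GB2 tumor 2 was. In all 39 genes the log2 fold change was above 0, as it was in 48.3% of all genes. The mean log2 CPM of the list was 2.99, 3.41 and 1.5 in PBS tumors and 2.89, 3.51 and 4.39 in GB2 tumors, so GB2 tumor 1 lay below PBS tumor 1 and GB2 tumor 2 close to PBS tumor 2.

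Markers of cell types that express PYHIN genes were read in the same way, and none passed the adjusted test. At the unadjusted p and fold limits used for every cell list here, 3.74% of all genes were higher and 0.918% lower. All 12 macrophage markers had a log2 fold change above 0 (median 1.94), 11 passed the unadjusted p and fold limits, none was at 0 in all tumors, and their sum was between 70.2 and 97.3 CPM in PBS and between 271 and 372 CPM in GB2 tumors. Adgre1, which encodes F4/80, had a log2 fold change of 2.55 and Csf1r, the receptor of macrophage colony-stimulating factor, one of 2.01 (adjusted p = 0.190 and 0.266 by edgeR). The part of these markers in the members' values was not tested. Relative to the mean log2 CPM of the macrophage markers, no member was higher in GB2 tumors without overlap, where 0.102% of all genes were, and 2 were lower without overlap, Aim2 by 0.62 and Mndal by 1.62, where 81.1% of all genes were. Ifi204 was at -0.85, -0.92 and -2.06 relative to that mean in PBS tumors and at -1.30, -1.35 and -1.20 in GB2 tumors, so that PBS tumors 1 and 2 lay above and PBS tumor 3 below all GB2 tumors. Ifi207 was at -3.81, -1.52 and -2.36 in PBS tumors and at -2.19, -1.85 and -1.89 in GB2 tumors, with PBS tumors at both extremes.
Of the other cell lists, neutrophil markers had 4 of 5 tested genes higher, with 1 further gene of the list at 0 in all tumors (sum 2.06 to 4.44 CPM in PBS and 9.13 to 12 CPM in GB2 tumors), monocyte markers 2 of 5 (4.77 to 10.3 against 11.4 to 24.5 CPM) and dendritic cell markers 1 of 5 (8.23 to 10.8 against 14.1 to 16.7 CPM). The dendritic cell gene that passed was Itgax (means 1.51 in PBS and 5.22 CPM in GB2 tumors), and most of the rest of that sum was Zbtb46 (7.21 and 9.07 CPM). Flt3, Xcr1 and Siglech of that list were too low to be tested. Mast cell markers had 2 of 4 higher (4.07 to 6.38 against 10.5 to 13.7 CPM), endothelial markers 4 of 6 (52.1 to 69.0 against 108 to 124 CPM) and fibroblast markers 7 of 7 (294 to 525 against 978 to 1350 CPM). Most of the mast cell sum was Kit (means 4.99 and 9.87 CPM), which did not pass. T cell markers had 0 of 7 higher, with sums of 0.368 to 6.09 CPM in PBS and 0.690 to 3.56 CPM in GB2 tumors, NK cell markers 0 of 3 (0.226 to 2.16 against 0.929 to 3.36 CPM) and B cell markers 0 of 3 (0.575 to 1.32 against 0.512 to 1.20 CPM). PBS tumor 3 was the lowest of the 6 in 12 of the 16 cell lists, immune and other (all but the B cell, mast cell, skeletal muscle and erythroid lists), and in the sum of the interferon-stimulated genes, as it was in 8 members, and what part this tumor's cell makeup had was not tested. Skin keratinocyte markers had 1 of 5 higher, skeletal muscle markers 0 of 5, adipocyte markers 0 of 4, carcinoma epithelium markers 1 of 5 and proliferation markers 0 of 6, and of the erythroid genes 3 of 5 were lower.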

How the data were processed

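RNA of 6 tumors had been sequenced as poly-A selected, strand-marked (dUTP), paired-end libraries. The authors deposited 1 table with estimated counts and FPKM per gene and tumor. The estimated counts that the authors deposited are whole numbers not scaled between tumors, and the FPKM are, in the table the authors deposited, scaled to transcript length and to the library. The submitters' processing notes list cutadapt 1.9, HISAT2 2.2.1, StringTie 2.1.6, DESeq2, edgeR and mm10; how multi-mapped reads were counted is not given in the sources used here. Among low counts, 4 (7017 values) and 8 (3462) are more frequent than their neighbours 3 (2984), 5 (2017), 7 (1680) and 9 (1402), while 1 and 2 occur 5446 and 4996 times, so that about 4 counts may stand for 1 read pair, with parts of pairs below that; the conversion is not given in the sources used here.

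The count test was edgeR 4.0.16 (R 4.3.3): filterByExpr with a minimum count of 10 left 19602 genes, TMM set the scaling, and the quasi-likelihood functions glmQLFit and glmQLFTest gave p values, adjusted after Benjamini and Hochberg over all genes tested. The limits of an adjusted p of 0.05 and a fold change of 2 are those in the methods of the study. CPM are counts per 10⁶ of the TMM-scaled library, log2 CPM used a prior count of 2, and SE come from the test statistic. Alternatives used DESeq2 1.42.0, limma 3.58.1 on log2(FPKM + 1) and log2(FPKM + 0.1), median-of-ratios factors, no filter, counts divided by 4, a replicate block and each tumor left out. The computations were checked on simulated data. Motifs were searched in RefSeq promoter windows.

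Named genes were all members, fixed genes of each list, and of each list up to 4 in each direction with the largest change at an unadjusted p under 0.05 and 2-fold; the lists are those whose counts the report gives. The members and lists were chosen with earlier results of these data known. The labels do not say how the 3 tumors of a group relate beyond their numbers, so p values measure the spread between these tumors, and no batch is given. All per-sample columns were used.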

Additional observations from a re-analysis of the deposited data

How the results depend on the processing

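The common coefficient of variation among replicate tumors was 40.5%, which limits what 3 tumors a group can show. Among the alternatives, Ifi202b, Ifi204 and Ifi207 passed the unadjusted p and fold limits in 12 of 13 and the exception was limma on log2(FPKM + 1), where low genes are compressed by construction: 0 members passed, the family median was 0.34, and 95 genes were higher and 34 lower in all. Lower genes numbered 115 in limma on log2(FPKM + 0.1) and 338 with no filter. In limma on log2(FPKM + 0.1), Ifi205 and Ifi211 passed and Aim2 and Ifi213 did not, and without GB2 tumor 2 Ifi209 passed and those same 2 did not. DESeq2 called 385 genes and 2 members at an adjusted p under 0.05. No pairing by tumor number was seen, as deviations of same-numbered tumors correlated at 0.03, 0.16 and -0.24 across genes, and with a replicate block 3 members passed the unadjusted limits, Aim2 and Ifi213 no longer doing so, where 3.24% of all genes were higher. The direction of Mndal was not stable. Its log2 fold change was 0.0025 with no filter, 0.12 and 0.28 in limma on log2(FPKM + 1) and log2(FPKM + 0.1), and 0.19 with the replicate block.

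With each tumor left out in turn, 0 genes and 0 members were called at an adjusted p under 0.05, 3 to 6 members passed the unadjusted limits, and 503 to 950 genes were higher and 123 to 548 lower at them (310 without PBS tumor 2 and 548 without PBS tumor 3). Over the same settings the family median ran from 0.96 to 1.53, Mndal from -0.43 to 0.38 and Ifi203 from -0.085 (without PBS tumor 3) to 1.07, and the other 8 members were above 0 in every alternative in which they were tested. Between 2 and 4 members changed rank by mean FPKM in PBS tumors and between 0 and 2 in GB2 tumors. Of the gene lists, 1 to 12 interferon-stimulated genes, 1 to 2 other PYHIN genes, 4 to 5 inflammasome genes and 3 to 5 interferon pathway genes passed. Divided by 4, the counts of Ifi213 no longer passed the filter, and it was not tested there. The cause of these shifts was not tested.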
